A study of Mus musculus with 14 samples.

Results

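Genes that mark B and T lymphocytes were followed across 14 arrays of mouse mammary gland RNA. The list held 31 genes, chosen by name as receptor chains or surface and signalling proteins of B cells, of T cells or of both. Of these, 29 had a probe set annotated with that gene alone, out of 18193 genes named on the array. They comprised 10 B cell genes, 6 genes shared by both lineages and 13 of the 15 listed T cell genes; Lck and Tcf7 were not analysed here. Each gene is given by the probe set whose mean level was highest, and Ighm is given by all of its 11 probe sets.

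The glands came from female C57BL/6 mice that were 11 to 12 weeks old on arrival, were kept for 1 week before the study and had their ovaries removed 7 days before treatment, in all groups including the controls. Tissue was taken 3 h after vehicle, 17-beta-estradiol (E2), a blocker of estrogen receptors, or E2 given at the same time as a blocker, and the glands of a group, 8 mice by the labels, were pooled. There were 2 arrays for vehicle and for each of E2, acolbifene and E2+acolbifene, whereas fulvestrant, raloxifene, tamoxifen, E2+fulvestrant, E2+raloxifene and E2+tamoxifen had 1 array each. Fulvestrant is a steroidal antiestrogen, the other blockers are nonsteroidal receptor ligands, and the sources used here give no dose for any blocker. Values are RMA levels on the log2 scale, so every difference below is a log2 difference.

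Whether the 2 arrays of a group had separate pools is not stated in the labels, and the raw-file names of both arrays of each replicated group share their sample part. All p-values below thus rest on the spread from array to array, which may be technical. The raw-file name of the raloxifene array shares its sample part with the E2+acolbifene arrays, although the labels differ. Its deviations from the mean of all arrays correlated with theirs at r = 0.00 and 0.08 over all probe sets. The raw-file names also carry a code, which was the same on vehicle, acolbifene, E2+acolbifene and E2 array 2 (7 arrays) and different on E2 array 1 and the 6 single arrays. Mean levels of the hybridization spikes were 9.86 to 10.04 on E2 and single arrays and 10.23 to 10.41 on the remaining ones. This split cannot be told apart from an effect of E2 or, against vehicle, of a single-array treatment. The comparison of E2+acolbifene with E2, and that of the acolbifene effects with and without E2, also cross it. The array medians lay between 7.16 and 7.23.

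B lymphocytes recognise antigen through a membrane immunoglobulin, whose heavy chain of the IgM class is encoded by Ighm, and which signals through the paired chains Cd79a and Cd79b. T lymphocytes recognise peptides on MHC molecules through a T cell receptor that signals through the CD3 chains and the zeta chain Cd247, with Cd4 or Cd8 as co-receptor. The mouse mammary fat pad contains lymph nodes packed with both lineages, and lymphocytes also lie in the stroma and epithelium. The sources used here do not say whether the nodes were removed. In RNA of whole glands, fewer lymphocytes and less RNA per lymphocyte cannot be told apart.

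Promoters of 3 members are shown because they hold, beside the transcription start, sequences of the kind read by lymphoid transcription factors. RefSeq (mouse build GRCm38.p6) gave windows of 250 bases before to 50 bases after the start for 21 of the listed genes, Lck included. The motif CAGGAAGT, of the kind bound by ETS factors, was found on either strand in windows of 6 of these genes (Cd247, Cd3e, Cd79a, Il7r, Lck and Ptprc) out of 21, and in those of 3.86% of all 27025 genes with a window. The motif TCCC, any 2 bases and GGGA, of the kind bound by the early B cell factor EBF, was found for Cd22 and for 1.06% of all genes. The octamer ATGCAAAT, read by POU factors, was found for 0 of the 21 genes and for 1.97% of all genes. These motifs were picked after other spellings had been looked at, do not overlap each other in the windows printed, and describe letters, not bound sites. The windows below run 5′ to 3′ on the strand of the gene, with the motif in capitals (for Cd3e its reverse complement).
Cd79a promoter, chr7:24897247-24897546, plus strand, ETS motif from position -56: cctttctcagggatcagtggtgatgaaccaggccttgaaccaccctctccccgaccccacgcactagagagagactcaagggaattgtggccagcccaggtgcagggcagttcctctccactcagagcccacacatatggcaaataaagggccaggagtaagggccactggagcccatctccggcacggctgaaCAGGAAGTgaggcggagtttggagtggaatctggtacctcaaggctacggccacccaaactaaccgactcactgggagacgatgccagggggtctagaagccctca
Cd22 promoter, chr7:30878979-30879278, minus strand, EBF motif from position -49: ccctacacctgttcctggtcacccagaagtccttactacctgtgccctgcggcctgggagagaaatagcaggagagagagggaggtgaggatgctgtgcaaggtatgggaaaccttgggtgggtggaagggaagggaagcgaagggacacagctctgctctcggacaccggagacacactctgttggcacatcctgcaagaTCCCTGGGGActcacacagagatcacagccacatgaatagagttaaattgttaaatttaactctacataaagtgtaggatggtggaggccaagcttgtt
Cd3e promoter, chr9:45009562-45009861, minus strand, ETS motif from position -18: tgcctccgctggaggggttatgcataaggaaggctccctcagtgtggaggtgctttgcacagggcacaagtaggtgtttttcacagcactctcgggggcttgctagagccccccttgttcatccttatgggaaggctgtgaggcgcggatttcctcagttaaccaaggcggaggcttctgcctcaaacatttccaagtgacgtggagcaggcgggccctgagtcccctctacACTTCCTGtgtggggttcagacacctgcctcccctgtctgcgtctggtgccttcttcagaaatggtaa

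Lymphocyte RNA was plainly present on every array. The mean level over 14 arrays was 8.00 or higher for 28 members, with Pax5, the transcription factor that fixes B cell identity, lowest at 6.70 against a dim level of 6.65. Of 7 listed genes of node stroma and venules, some were bright and others dim. Cxcl13, the chemokine that draws B cells into follicles, lay at 11.01 and 11.02 on the vehicle arrays and between 10.36 and 11.06 on the others. Glycam1, a ligand made by high endothelial venules and also a milk protein gene of mammary epithelium, lay at 12.57 and 12.64 on vehicle and between 12.23 and 12.55 elsewhere. Madcam1, the addressin of mucosal venules, lay around the dim level at 6.79 and 6.50 on vehicle and from 6.71 to 7.12 elsewhere, above both vehicle arrays on 9 of 12. Tnfsf11, the cytokine RANKL, lay below the dim level on every array. Of these 7 genes, limma called 0 lower or higher in the comparisons of E2, acolbifene and E2+acolbifene with vehicle. At an unadjusted p under 0.05, limma gave 2, 0 and 1 lower, against 11.1%, 6.63% and 9.94% of all probe sets. It gave 0, 1 and 2 higher, for which no share of all probe sets was computed. Counts this small in 7 genes cannot be told from the background.

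The vehicle arrays held the highest levels for many members. On all 12 other arrays, whatever the treatment, 12 of 29 members (41.4%) lay below both vehicle arrays, against 3.76% of all probe sets and 5.45% of genes above the dim level. They were the B cell genes Cd79a, Cd79b, Ms4a1, Blk and Fcer2a, the shared genes Cd37, Cd52 and Ccr7, and the T cell genes Cd247, Cd8a, Cd2 and Cd28. The same 12 members met this without the raloxifene array (3.82% of probe sets) and without both E2+acolbifene arrays (4.53%), 14 without the E2 arrays (4.6%) and 11 after a further quantile normalization (3.89%). Without the acolbifene arrays 17 members met it (8.4% of probe sets), without vehicle array 1 16 (9.25%) and without vehicle array 2 15 (9.33%). Among the 5 arrays with the raw-file code of vehicle 16 members met it (6.22% of probe sets), and among the 7 arrays with the other code 19 (14.1%). Leaving arrays out of this rule can only keep or add members, so of these counts only that after normalization could have fallen. All these counts rest on the same vehicle arrays.

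**Figure D1:**
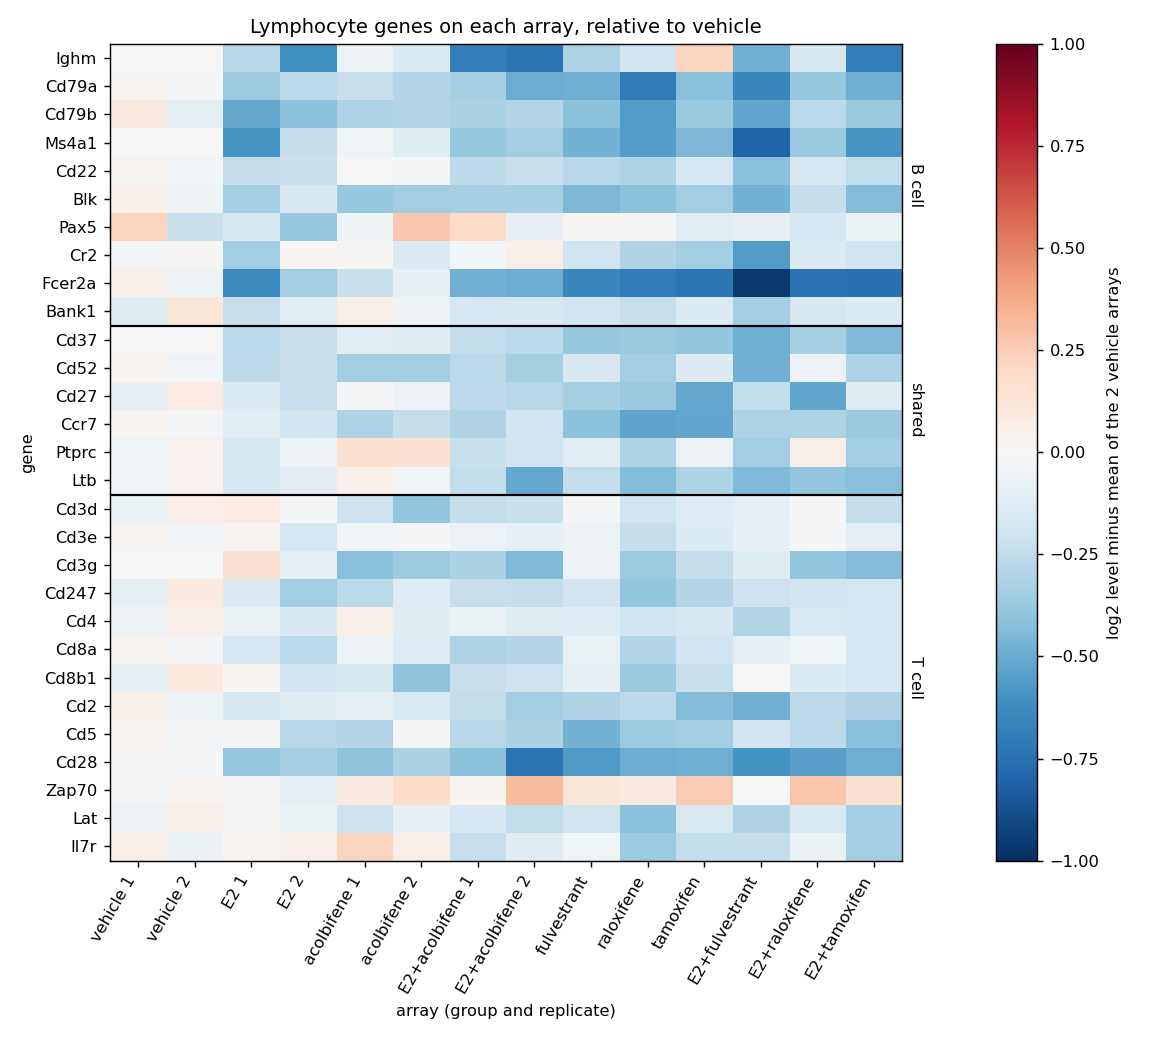
Level of each of the 29 members (rows, ordered as B cell, shared and T cell genes) on each of the 14 arrays (columns), as the log2 level minus the mean of the 2 vehicle arrays (colour scale, blue lower and red higher). Most cells outside vehicle are blue; Zap70 was above both vehicle arrays on 9 of the other 12, and Fcer2a on the E2+fulvestrant array was the lowest of its row at 9.89.

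Bright genes as a whole shifted between these arrays. The 9225 genes with mean levels from 8 to 13, which include 28 of the members, had a median difference from vehicle between -0.17 (E2+tamoxifen) and 0.09 (acolbifene array 1). The median of all members lay below that of these genes on each of the 12 arrays, between -0.09 (acolbifene array 1) and -0.36 (raloxifene). After a further quantile normalization the medians of the members lay between -0.13 and -0.28 and those of the level-matched genes between -0.02 and 0.01.

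B cell genes and T cell genes differed from vehicle by unequal amounts on several arrays. The median of the 10 B cell genes was -0.34 and -0.25 on the E2 arrays, -0.05 and -0.13 on the acolbifene arrays and -0.33 and -0.31 on the E2+acolbifene arrays. The median of the 13 T cell genes was -0.02 and -0.16, -0.16 and -0.13, and -0.23 and -0.24 on the same arrays. On the single arrays the B cell median ran from -0.20 (E2+raloxifene) to -0.50 (E2+fulvestrant), and the T cell median from -0.10 (fulvestrant) to -0.36 (raloxifene). On the fulvestrant array the medians were thus -0.36 for B cell and -0.10 for T cell genes, whereas on the raloxifene array both were -0.36. The median of the 6 shared genes ran from -0.06 (acolbifene array 1) to -0.39 (E2+fulvestrant). Over the 14 arrays the mean of the B cell genes and that of the T cell genes correlated at r = 0.70 (Spearman's rho 0.67), and at r = 0.36 over the 12 arrays other than vehicle. These points share arrays and normalization, and the values are a description.

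**Figure D2:**
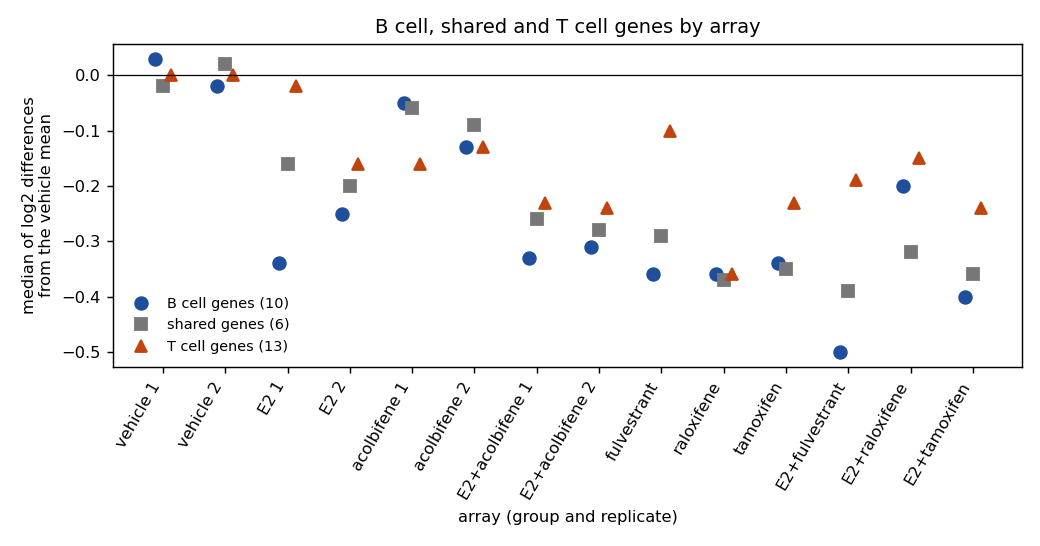
Median over B cell genes (10, circles), shared genes (6, squares) and T cell genes (13, triangles) of the log2 difference from the mean of the vehicle arrays (vertical axis), for each array (horizontal axis). B cell genes lie well under T cell genes on E2 array 1, fulvestrant and E2+fulvestrant, and the acolbifene arrays have the B cell medians closest to vehicle, at -0.05 and -0.13.

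Among the chains of the B cell receptor, Ighm read 13.10 and 13.09 on vehicle, 12.82 and 12.49 after E2, 13.04 and 12.95 after acolbifene, and 12.42 and 12.38 after E2+acolbifene. It read 12.79 after fulvestrant, 12.91 after raloxifene, 13.32 after tamoxifen, 12.62 after E2+fulvestrant, 12.94 after E2+raloxifene and 12.42 after E2+tamoxifen. The tamoxifen array was the only one above vehicle, and the other 11 arrays, acolbifene included, lay below both vehicle arrays. Ighm fell by 0.446 ± 0.108 after E2 (SE, 2 arrays per group, limma adjusted p = 0.0462) and by 0.696 ± 0.108 after E2+acolbifene (adjusted p = 0.0173). Acolbifene alone gave -0.102 ± 0.108 (adjusted p = 0.688). When each of the 8 arrays was left out in turn, the E2 call was lost each time (-0.28 without E2 array 2) except without E2 array 1 (-0.61, adjusted p = 0.031). The mean of all Ighm probe sets gave -0.15 (adjusted p = 0.249). The E2+acolbifene call was lost without either vehicle array or either E2+acolbifene array.

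Cd79b, a signalling chain of the receptor, read 10.66 and 10.49 on vehicle, 10.07 and 10.16 after E2, 10.27 and 10.29 after acolbifene and 10.25 and 10.28 after E2+acolbifene. On the 6 single arrays it lay between 10.02 (raloxifene) and 10.30 (E2+raloxifene), so that vehicle stood above every other array. It fell by 0.461 ± 0.092 after E2 (limma adjusted p = 0.021), a call lost without vehicle array 1 (-0.37, adjusted p = 0.16), without E2 array 1 (-0.41, adjusted p = 0.135) and without E2 array 2 (-0.51, adjusted p = 0.0566). Its partner chain Cd79a read 11.62 and 11.59 on vehicle and between 10.90 (raloxifene) and 11.38 (acolbifene array 1) elsewhere. The difference for Cd79a was -0.311 ± 0.091 after E2 (adjusted p = 0.0873) and -0.416 ± 0.091 after E2+acolbifene (adjusted p = 0.064), neither of which passed.

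Fcer2a, the low-affinity IgE receptor CD23 of mature B cells, had a wide spread. It read 10.90 and 10.80 on vehicle, 10.21 and 10.51 after E2, 10.63 and 10.77 after acolbifene and 10.37 and 10.35 after E2+acolbifene. On the single arrays it read 10.20 after fulvestrant, 10.15 after raloxifene, 10.13 after tamoxifen, 9.89 after E2+fulvestrant, 10.12 after E2+raloxifene and 10.11 after E2+tamoxifen. Its acolbifene arrays came closest to vehicle without overlap. Fcer2a fell by 0.49 ± 0.11 after E2 (limma adjusted p = 0.0334), and its second probe set fell by 0.402 ± 0.098 (adjusted p = 0.0476), a call lost in 9 of 13 alternatives, the replicate block and the raw-file code term among them. The difference after E2+acolbifene was of the same size, -0.49 ± 0.11, with an adjusted p of 0.066. The E2 call was lost without either vehicle array (limma adjusted p = 0.191 and 0.0868), either E2+acolbifene array (adjusted p = 0.0519 both times) or E2 array 1 (-0.34, adjusted p = 0.207).

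The other B cell genes passed in none of the replicated comparisons. Ms4a1, which encodes the CD20 antigen, differed from vehicle by -0.415 ± 0.112 after E2 (adjusted p = 0.066) and by -0.081 ± 0.112 after acolbifene. Blk, a Src family kinase of the B cell receptor, differed from vehicle by -0.363 ± 0.091 after acolbifene (adjusted p = 0.1) and by -0.25 ± 0.091 after E2 (adjusted p = 0.158). Cd22, an inhibitory co-receptor, and Bank1, an adaptor of B cell signalling, had group means within 0.01 of the vehicle mean after acolbifene. The acolbifene arrays of Bank1 lay at 0.06 and -0.05 from the vehicle mean, and its vehicle arrays read 10.52 and 10.75. Cr2, the complement receptor CD21, lay above both vehicle arrays on 3 of the other 12, and on the E2+fulvestrant array it was lowest at 9.29 against 9.84 and 9.86 on vehicle. Pax5 ranged from 6.37 to 7.01 with no separation from vehicle.

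The 11 probe sets of Ighm did not move together. The pair with the highest levels, 1427351_s_at and 1427329_a_at, followed the pattern given above, and the second fell by 0.387 ± 0.086 after E2 (limma adjusted p = 0.032) and by 0.52 ± 0.086 after E2+acolbifene (adjusted p = 0.0221). Both calls of this second probe set were lost without any one of the 4 arrays compared. Probe set 1425385_a_at read 10.24 and 10.06 on vehicle, 9.72 and 9.43 after E2, 8.99 and 9.21 after acolbifene and 8.65 and 8.65 after E2+acolbifene. Vehicle and tamoxifen (10.11) stood apart from the remaining arrays, which lay between 8.65 and 9.72. It fell by 0.577 ± 0.118 after E2 (adjusted p = 0.0234). The differences were -1.049 ± 0.118 after acolbifene (adjusted p = 0.00376), -1.502 ± 0.118 after E2+acolbifene (adjusted p = 0.000359) and -0.925 ± 0.118 for E2+acolbifene against E2 (limma adjusted p = 0.00527). The calls for E2+acolbifene, against vehicle and against E2, held in all 13 alternatives tried, whereas that for E2 was lost without either vehicle array or without E2 array 2, and that for acolbifene without vehicle array 1 or acolbifene array 1.

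On the fulvestrant and tamoxifen arrays 6 Ighm probe sets lay clearly above vehicle. On the fulvestrant array 1427870_x_at, 1425247_a_at, 1427756_x_at, 1425324_x_at and 1452535_at lay 0.65, 0.85, 0.58, 0.89 and 0.37 above the vehicle mean, and on the tamoxifen array 0.35, 0.62, 0.35, 0.58 and 0.60 above it. The dim probe set 1427869_at, between 5.81 and 6.63 over the arrays, lay 0.49 and 0.31 above it. On the same arrays the brightest probe set lay at -0.31 and 0.22. For 1425324_x_at the values were 7.99 and 7.97 on vehicle, 8.06 and 7.97 after E2, 8.04 and 7.89 after acolbifene and 7.46 and 7.46 after E2+acolbifene. Its single arrays read 8.87 after fulvestrant, 7.57 after raloxifene, 8.56 after tamoxifen, 7.80 after E2+fulvestrant, 7.14 after E2+raloxifene and 7.45 after E2+tamoxifen. The array with E2+raloxifene was thus the lowest and the array with fulvestrant the highest. Against E2, E2+acolbifene gave -0.494 ± 0.083 at 1425247_a_at, -0.563 ± 0.121 at 1427756_x_at and -0.556 ± 0.09 at 1425324_x_at (limma adjusted p = 0.0171, 0.0346 and 0.0148). Each of these 3 calls was lost without any one of the 4 arrays compared, and thus with a term for the raw-file code, which removes E2 array 1. In the fit of all 14 arrays, E2+raloxifene differed from E2 by -0.918 ± 0.119 at 1425247_a_at (adjusted p = 0.0322) and by -0.916 ± 0.127 at 1425324_x_at (adjusted p = 0.0444). Both calls were lost when any of the vehicle, acolbifene or E2+acolbifene arrays was left out. Probe sets of immunoglobulin genes can hold sequence shared with variable regions or other heavy chains, so which transcripts these probe sets read is uncertain. For example, 1451949_at (6.71 to 7.08) and 1426196_at (4.99 to 5.83) lay near or below the dim level, and 1426196_at was above both vehicle arrays on 9 of the other 12.

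**Figure D3:**
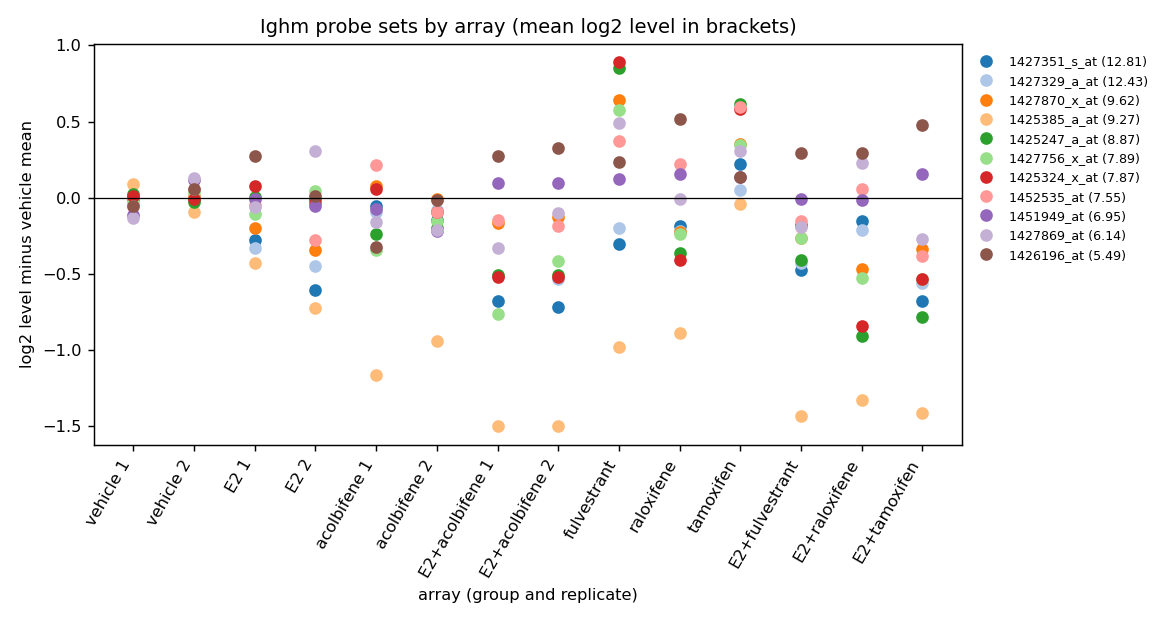
The 11 probe sets of Ighm (colours, mean log2 level in brackets) on each array (horizontal axis), as the log2 level minus the mean of the 2 vehicle arrays (vertical axis). One probe set, 1425385_a_at, differed from vehicle by -1.502 in the E2+acolbifene group, and several probe sets lie above vehicle on the fulvestrant and tamoxifen arrays.

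Among the genes that both lineages share, 0 of 6 passed limma's test in the comparisons of E2, acolbifene and E2+acolbifene with vehicle; at an unadjusted p under 0.05, 2, 2 and 6 were lower (11.1%, 6.63% and 9.94% of all probe sets) and 0 higher. Cd52, a small glycoprotein of lymphocyte membranes, read 12.31 and 12.26 on vehicle and between 11.81 (E2+fulvestrant) and 12.22 (E2+raloxifene) elsewhere. Ccr7, the receptor that leads naive lymphocytes into lymph nodes, read 9.40 and 9.35 on vehicle and between 8.84 (raloxifene) and 9.26 (E2 array 1) elsewhere. For neither gene did any array reach vehicle. Cd37, a tetraspanin of mature B cells, read 11.35 and 11.36 on vehicle and between 10.86 (E2+fulvestrant) and 11.24 elsewhere. Its second probe set, 1425736_at, fell after E2 (-0.465 ± 0.105, adjusted p = 0.0351), from 9.82 and 9.96 on vehicle to 9.36 and 9.50. This call was lost in 7 of 13 alternatives, among them without any one vehicle or E2 array. Ptprc, the phosphatase CD45 of leukocytes, was above both vehicle arrays on 3 of the other 12, with 12.79 and 12.78 after acolbifene against 12.59 and 12.68 on vehicle. Ltb, a lymphotoxin chain that shapes lymphoid tissue, differed by -0.38 ± 0.103 after E2+acolbifene (adjusted p = 0.102) and by 0.002 ± 0.103 after acolbifene. Cd27, a receptor of the TNF family, was lowest on E2+raloxifene (7.76) and tamoxifen (7.77) against 8.20 and 8.36 on vehicle.

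The CD3 chains of the T cell receptor split among themselves. Cd3g read 8.86 and 8.87 on vehicle, 9.02 and 8.77 after E2, 8.45 and 8.50 after acolbifene and 8.55 and 8.43 after E2+acolbifene. On the single arrays it read 8.81 after fulvestrant, 8.51 after raloxifene, 8.62 after tamoxifen, 8.74 after E2+fulvestrant, 8.48 after E2+raloxifene and 8.43 after E2+tamoxifen. E2 lay on both sides of vehicle, whereas acolbifene and E2+acolbifene lay below. Cd3g fell by 0.407 ± 0.1 when acolbifene was added to E2 (limma adjusted p = 0.0498), a call at the threshold that was lost without any one of the 8 arrays. Acolbifene alone differed from vehicle by -0.392 ± 0.1 (adjusted p = 0.106). Cd3d had a like order, with 10.11 and 10.26 on vehicle, 10.26 and 10.17 after E2, 9.97 and 9.80 after acolbifene and 9.94 and 9.96 after E2+acolbifene, and did not pass (-0.299 ± 0.096 for acolbifene, adjusted p = 0.174). Cd3e had the narrowest range of the 29 members, between 9.92 (raloxifene) and 10.20 (vehicle array 1). Cd247, the zeta chain, read 8.27 and 8.48 on vehicle and between 7.99 (raloxifene) and 8.25 elsewhere, without passing in any comparison.

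The co-receptors showed small differences. Cd4 lay between 9.07 (E2+fulvestrant) and 9.42 (acolbifene array 1), with vehicle at 9.31 and 9.41. Cd8a was below both vehicle arrays (10.02 and 9.98) on each of the others, from 9.69 (E2+acolbifene array 1) to 9.96 (E2+raloxifene), with -0.298 ± 0.086 after E2+acolbifene (limma adjusted p = 0.115). Cd8b1, the second chain of CD8, ranged from 9.68 (acolbifene array 2) to 10.18 (vehicle array 2) and overlapped with vehicle on 3 arrays.

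Costimulatory and adhesion genes included the T cell gene with the clearest shift. Cd28, the main costimulatory receptor of T cells, read 8.87 and 8.86 on vehicle, 8.49 and 8.53 after E2, 8.47 and 8.55 after acolbifene and 8.45 and 8.13 after E2+acolbifene. On the single arrays it read 8.30 after fulvestrant, 8.36 after raloxifene, 8.38 after tamoxifen, 8.27 after E2+fulvestrant, 8.32 after E2+raloxifene and 8.37 after E2+tamoxifen. Every other array lay clearly below both vehicle arrays. Cd28 fell by 0.573 ± 0.107 after E2+acolbifene (limma adjusted p = 0.0373), a call lost in 12 of 14 alternatives, among them without any one of the 8 arrays (adjusted p up to 0.218). The differences after E2 (-0.355 ± 0.107) and after acolbifene (-0.357 ± 0.107) did not pass (adjusted p = 0.0935 and 0.152). A dimmer probe set of Cd28 gave -0.002 ± 0.152 after E2+acolbifene. Cd2, an adhesion receptor, read 8.62 and 8.50 on vehicle and between 8.08 (E2+fulvestrant) and 8.47 (acolbifene array 1) elsewhere. Cd5, a receptor that dampens antigen signals, read 8.25 and 8.22 on vehicle, was 8.23 on acolbifene array 2 and lay lowest after fulvestrant (7.76).

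Of the signalling and survival genes of T cells, Zap70 did not follow the other members. Zap70, the kinase recruited by the CD3 and zeta chains, read 9.07 and 9.11 on vehicle and 9.40 and 9.37 on E2+acolbifene array 2 and E2+raloxifene, its highest values. Its difference of 0.171 ± 0.103 after E2+acolbifene did not pass (limma adjusted p = 0.378), but a dimmer probe set, 1440178_x_at, was higher after E2+acolbifene than after E2 (0.428 ± 0.104, adjusted p = 0.0479), a call lost in 9 of 13 alternatives, each E2 or E2+acolbifene array left out among them. That probe set read 7.81 and 7.83 after E2, 8.21 and 8.28 after E2+acolbifene and 8.21 and 8.12 on vehicle. Lat, the adaptor phosphorylated by Zap70, was lowest after raloxifene (9.45, vehicle 9.82 and 9.92). Il7r, the receptor for the survival cytokine IL-7, lay at 10.06 on acolbifene array 1 and at 9.48 on the raloxifene and E2+tamoxifen arrays, around vehicle at 9.91 and 9.77.

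The question put by the E2 comparison was which lymphocyte genes moved within 3 h of estradiol. In limma's test with Benjamini-Hochberg adjustment over 45037 probe sets, 3 of 29 members were lower (Ighm, Cd79b and Fcer2a) and 0 higher, against 1.67% of all probe sets lower and 2.07% higher. All 3 were B cell genes. At an unadjusted p under 0.05, 12 members were lower (11.1% of all probe sets) and 0 higher. The median difference was -0.17 for the members, -0.29 for the B cell genes and -0.09 for the T cell genes, against -0.024 for all probe sets. Without vehicle array 1 the number called was 0, and it was 1 without vehicle array 2, E2 array 1 or either E2+acolbifene array. In this fit only E2 array 1 has the other raw-file code. A term for the code thus amounts to leaving that array out, with a median of -0.19.

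**Figure D4:**
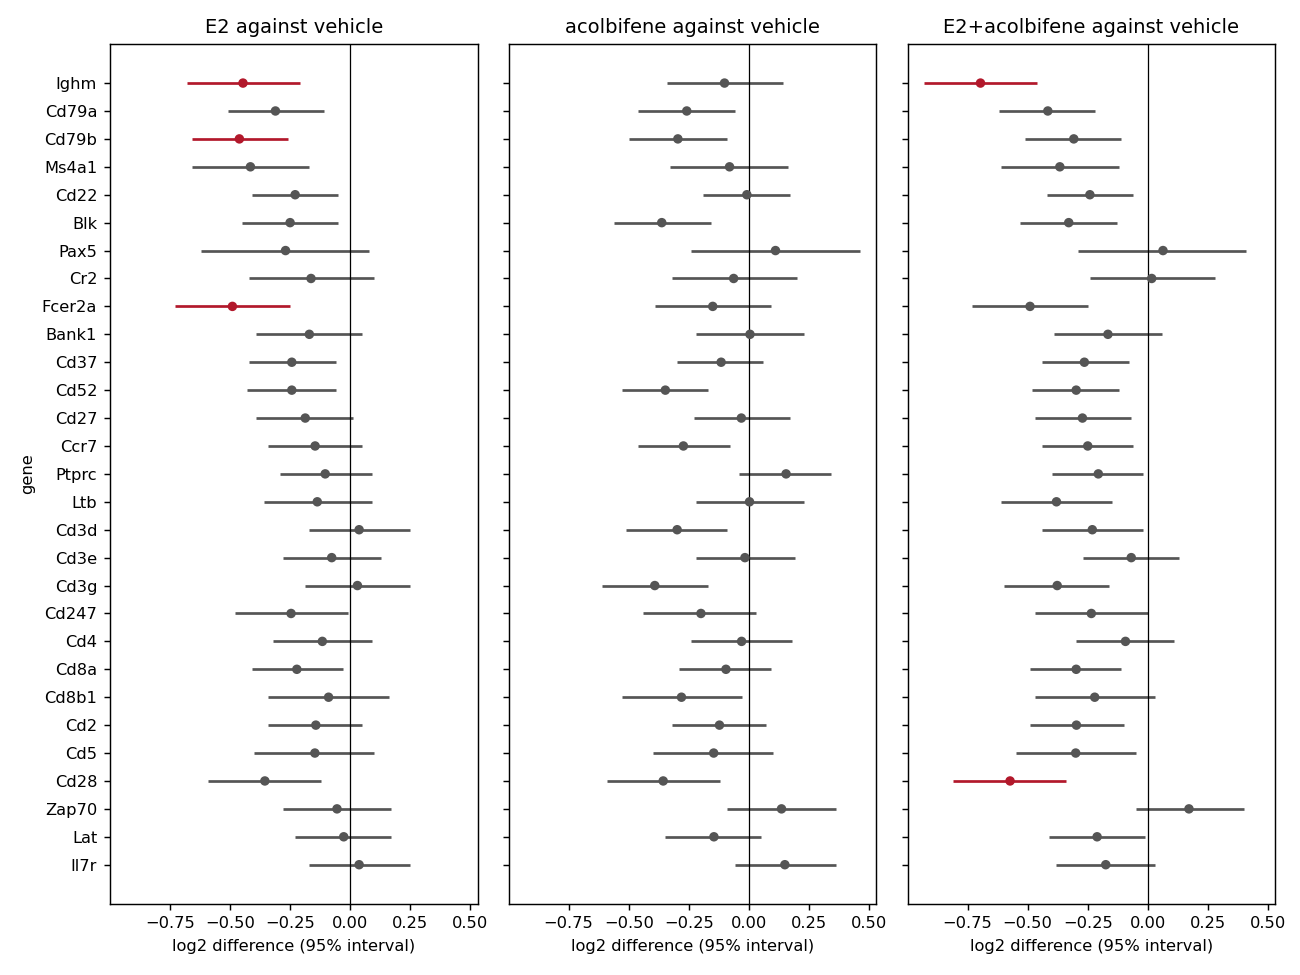
Log2 difference from vehicle (points) with its 95% interval (bars) for each of the 29 members in the comparisons of E2, acolbifene and E2+acolbifene, 2 arrays per group. Red marks an adjusted p under 0.05: Ighm, Cd79b and Fcer2a after E2, none after acolbifene, and Ighm and Cd28 after E2+acolbifene.

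Acolbifene alone was compared with the same vehicle arrays. Here 0 of 29 members passed (0.191% of all probe sets were called lower and 0.406% higher); at an unadjusted p under 0.05 limma gave 9 members lower (6.63% of all probe sets) and 0 higher. The median was -0.12 for the members, -0.09 for the B cell genes and -0.15 for the T cell genes, against 0.012 for all probe sets. The lowest values were those of Cd3g (-0.39), Blk (-0.36), Cd28 (-0.36) and Cd52 (-0.35).

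With both ligands together, E2+acolbifene against vehicle gave 2 members lower (Ighm and Cd28) and 0 higher, against 0.384% of all probe sets lower and 0.453% higher. At an unadjusted p under 0.05, 20 members were lower (9.94% of all probe sets) and 0 higher. The median was -0.26 for the members, -0.32 for B cell, -0.23 for T cell and -0.27 for shared genes, against -0.003 for all probe sets and -0.062 for genes above the dim level. A further quantile normalization moved the median to -0.18 with 0 members called. Without either vehicle array or either E2+acolbifene array 0 were called, and without either acolbifene array 1.

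Set against E2 alone, E2+acolbifene gave 1 member lower (Cd3g) and 0 higher, against 2.03% of all probe sets lower and 1.63% higher, a share near the background. The median was 0.00 for B cell genes and -0.15 for T cell genes. Whether acolbifene acted differently in the presence of E2 was tested as an interaction. It was called by limma for 0 members (4.47% of all probe sets in either direction). The nearest was Cd79b (0.449 ± 0.13, adjusted p = 0.0685). The mean of the 3 treated groups lay below vehicle for Ighm, Cd79b and Cd28 (-0.415 ± 0.088, -0.355 ± 0.075 and -0.428 ± 0.087; limma adjusted p = 0.047, 0.0458 and 0.0393), against 0.548% of all probe sets lower and 0.839% higher. This count was 0 without either vehicle array, either acolbifene array or E2+acolbifene array 2, and 1 without any of the other 3 arrays.

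To test the single arrays, all 14 were fitted together, with a term for the raw-file code. This term cannot remove the split in spike levels, because both E2 arrays lie on the same side of it as the single arrays. The comparisons with vehicle cross that split. A group without a replicate was assumed to vary like the replicated ones, the comparisons with vehicle pass through the E2 arrays, and those with E2 rest on E2 array 1. Of 29 members, 0 were called by limma in any of the 6 comparisons. Against vehicle, the share of all probe sets called in either direction was 0.153% for fulvestrant, 0.00888% for raloxifene and 0.0111% for tamoxifen; at an unadjusted p under 0.05, 6, 13 and 7 members (2.2%, 2.05% and 2.04% of all probe sets) were lower and 0 members higher. Against E2 the shares were 0.0222% for E2+fulvestrant, 0.0955% for E2+raloxifene and 0.0133% for E2+tamoxifen, with 4, 2 and 6 members (1.7%, 3.44% and 6.56% of all probe sets) lower at that p and 0 members higher. Raloxifene gave the lowest member median in these fits (-0.39), and Cd3g the lowest member values after E2+raloxifene and E2+tamoxifen (-0.541 ± 0.124 and -0.587 ± 0.124 against E2; adjusted p = 0.275 and 0.17). Since the doses are not given and each of these groups had 1 array, the order of these values does not rank the blockers.

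Genes around the receptors, taken from lists chosen by pathway, moved in both directions. Their counts stand beside the shares given above, which were 2.07% of all probe sets higher and 1.67% lower after E2. Of 13 B cell transcription factors, limma called 2 higher after E2 and 0 lower. Irf4, which drives activated B cells toward antibody secretion and also acts in T cells and macrophages, lay above both vehicle arrays (9.23 and 9.22) on all others, from 9.60 to 10.13. It rose by 0.81 ± 0.091 after E2, 0.496 ± 0.091 after acolbifene and 0.606 ± 0.091 after E2+acolbifene (limma adjusted p = 0.000782, 0.0403 and 0.0144). Bcl6, the master regulator of germinal centre B cells, rose after E2 (0.579 ± 0.088, adjusted p = 0.00498), from 8.41 and 8.40 to 9.05 and 8.92, and read 8.47 and 8.40 after E2+acolbifene. Of the 17 genes of B cell receptor signalling, 1 was called in the comparisons with vehicle, namely Pik3cd, the lymphocyte PI3 kinase, higher after E2+acolbifene (0.839 ± 0.163, adjusted p = 0.043).

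Of 19 genes of T cell receptor signalling, 2 were lower after E2: Cd48, a ligand of Cd2 in the mouse (-0.363 ± 0.083, adjusted p = 0.0363), and Slamf1 (-0.472 ± 0.089, adjusted p = 0.0162). Cd48 was also lower after E2+acolbifene (-0.558 ± 0.083, adjusted p = 0.0137), from 9.79 and 9.74 to 9.23 and 9.18. Of 10 T cell transcription factors, Gata3, which is also a factor of mammary luminal cells, was lower after E2 (-0.841 ± 0.125, adjusted p = 0.00441) and higher in E2+acolbifene than in E2 (0.729 ± 0.125, adjusted p = 0.0183). Of 10 homing receptors, Cxcr5, which leads B cells to follicles, and the integrin chain Itga4 were lower after E2 (-0.519 ± 0.093 and -0.399 ± 0.09; adjusted p = 0.0132 and 0.0353). Cxcr4, the receptor for the chemokine CXCL12, was higher (0.737 ± 0.14, adjusted p = 0.017). Among 8 plasma cell genes, Mzb1, a chaperone of antibody-secreting and innate-like B cells, was lower after E2 (-0.448 ± 0.089, adjusted p = 0.021). Ciita, the activator of MHC class II genes, was the 1 gene called among 11 of that list after E2 (-0.38 ± 0.09, adjusted p = 0.0414), and the chemokine gene Ccl5 the 1 called among 9 of natural killer and cytotoxic cells after acolbifene (-0.48 ± 0.093, adjusted p = 0.0485). Jchain, which joins IgM and IgA polymers, was lower after E2+acolbifene (-0.832 ± 0.106, adjusted p = 0.00606), with 11.11 and 11.30 on vehicle, 10.34 and 10.40 after E2+acolbifene and 11.55 on the tamoxifen array. Except for Irf4, these E2 calls were lost without at least 1 of the 4 vehicle and E2 arrays. The calls of Irf4, Cd48, Pik3cd and Jchain against vehicle after E2+acolbifene, and of Irf4 and Ccl5 after acolbifene, were lost without at least 1 of the arrays compared. The Gata3 call for E2+acolbifene against E2 was lost without either E2 array or without E2+acolbifene array 2.

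Other cell types and responses moved on the same arrays. Over the 14 arrays the mean of the members correlated at r = 0.89 with 11 genes of MHC class II presentation, a function of B cells, dendritic cells and macrophages, at r = 0.74 with both the lymph node stroma and the adipocyte lists, at 0.71 with endothelium, at 0.44 with macrophage, at -0.12 with skeletal muscle and at -0.58 with epithelial genes. Over the 12 arrays without vehicle the epithelial r was -0.16, so the value of -0.58 leans on the vehicle arrays. Over those 12, r was 0.93 with MHC class II, 0.72 with node stroma and 0.71 with adipocyte genes. It was 0.64 with endothelium, 0.59 with macrophage and 0.03 with skeletal muscle. With glucocorticoid-responsive genes r was -0.34 over the 14 arrays and 0.73 over the 12 without vehicle. The macrophage median was -0.20 on both E2 arrays and 0.32 and 0.27 on the acolbifene arrays. Skeletal muscle medians ran from -1.47 (E2+raloxifene) to 0.83 (fulvestrant) and were -0.71 and 0.50 on the E2 arrays. The median of 12 glucocorticoid-responsive genes was 0.76 and 0.76 after E2, 0.73 and 0.63 after acolbifene, 0.52 and 0.55 after E2+acolbifene and between 0.23 and 0.40 on the single arrays, above vehicle on all 12. Limma called 10, 8 and 8 of these 12 genes higher in the comparisons of E2, acolbifene and E2+acolbifene with vehicle. The shares of all probe sets called higher were 2.07%, 0.406% and 0.453%. The calls of Zbtb16 held in all 13 alternatives in each of these comparisons. Those of Dusp1 after acolbifene and Sgk1 after E2+acolbifene were lost in 11 and 10 of 13. The part of these cell types and responses in the lymphocyte values was not tested.

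**Figure D5:**
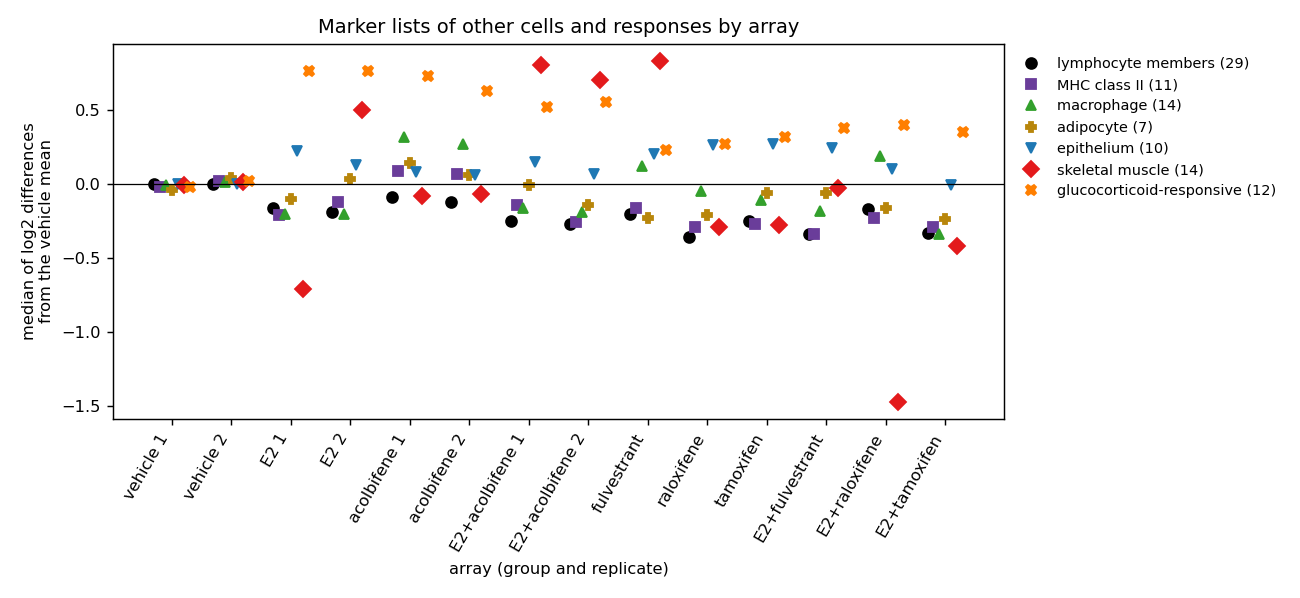
Median log2 difference from the vehicle mean (vertical axis) of the 29 lymphocyte genes and of marker lists of other cells and responses (number of genes in brackets) on each array (horizontal axis). Glucocorticoid-responsive genes lie at 0.23 or higher on all arrays other than vehicle, lymphocyte genes lie below 0 on all of them, and skeletal muscle genes spread from -1.47 to 0.83.

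Members differed in how closely they followed the others. The correlation of a member with the mean of the remaining members over the 14 arrays was 0.96 for Cd79a, 0.94 for Cd37, 0.88 for Cd22 and Fcer2a and 0.87 for Ms4a1. It was 0.86 for Cd2 and 0.85 for Cd28, the highest T cell genes. It was 0.43 for Ighm, 0.34 for Cd3g, 0.28 for Cd8b1, 0.23 for Cd3d, 0.09 for Pax5 and -0.31 for Zap70. Outside the list, the pattern most like the mean of the members among 13284 genes was that of Napsa (r = 0.953), which encodes the aspartic protease napsin A and read 9.94 on average on vehicle and 9.35 to 9.69 on the others. Next came Jarid2 (0.942), Arhgap45 (0.938), the DNA polymerase Polm (0.936), Tnfrsf13b, the TACI receptor of B cells (0.933), Fcmr, the Fc receptor for IgM (0.931), Dennd1c and H2-M3 (both 0.927), the proton channel Hvcn1 (0.926) and Klhl6 (0.922). The most opposite patterns were those of the protocadherin Pcdh1 (-0.91), Reep3 (-0.906), Moxd1 (-0.899), 9130019O22Rik (-0.892) and the transcription factor Sox9 (-0.889). All these correlations share the 14 arrays and their normalization, and the vehicle arrays weigh on them.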

How the data were processed

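The authors deposited log2 expression levels of 14 arrays. Per the submitters' processing notes these are RMA values; the version is not given in the sources used here. RMA normalizes quantiles between arrays and compresses weak signals. The table holds the 45101 probe sets of a later mouse array design than the U74Av2 named in the design text; 64 control probe sets were left out. Of the rest, 34945 carried 1 gene symbol, 932 several and 9160 none. Scanner data were not used here.

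Groups follow the treatment in the labels. The tests were run in limma 3.58.1 under R 4.3.3 (lmFit, eBayes, Benjamini-Hochberg over 45037 probe sets, adjusted p under 0.05), checked on simulated data. Contrasts among the 4 replicated groups (6) used their 8 arrays; those of single arrays (6) used all 14, with a term for the raw-file code. The dim level is the 40th percentile of mean levels. Array number limits the precision.

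Members and the 17 context lists were chosen with earlier results of these data known. Named were all members, every Ighm probe set, the called genes of the lymphoid context lists, and the 10 genes most like and 5 least like the members; called genes of lists of other cells and responses, and the uncalled extremes of each list, which the rule also covers, are given as counts or medians. The replicate numbers did not pair the arrays (correlations of deviations -0.1235 to 0.1171). Alternatives were the replicate block, the raw-file code, an intensity trend, a filter on dim probe sets, a further quantile normalization, the mean of a gene's probe sets and each array left out.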

Additional observations from a re-analysis of the deposited data

Results flagged for a closer look

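The effect of acolbifene differed between mice with and without E2, by limma's test of that difference, at 2 probe sets of the lymphocyte genes. Counted over all probe sets of the members, 11 of Ighm among them, that share was not above the 4.47% of all probe sets called. No member was called at its brightest probe set. In the lymphoid lists 5 genes were called, a share near the 4.47% of all probe sets called in either direction. They came from 13 B cell and 10 T cell transcription factors, 10 homing receptors and 8 plasma cell genes. No gene was called among 17 and 19 genes of B and T cell receptor signalling. The same held for 11 of MHC class II, 9 of natural killer and cytotoxic cells and 7 of node stroma. At Ighm probe set 1425324_x_at the difference was -0.54 ± 0.127 (adjusted p = 0.0406): acolbifene alone gave -0.015, and acolbifene added to E2 gave -0.556. At the second probe set of Cd37 it was 0.778 ± 0.148 (adjusted p = 0.022), with 9.29 and 9.53 after acolbifene, 9.36 and 9.50 after E2, 9.69 and 9.76 after both and 9.82 and 9.96 on vehicle; the first probe set of Cd37 was not called. The difference was -0.7 ± 0.129 for Irf4 (adjusted p = 0.0194), -0.786 ± 0.124 for Bcl6 (adjusted p = 0.0115) and -0.952 ± 0.198 for Cxcr4 (adjusted p = 0.0291); for all 3, E2+acolbifene read lower than E2 alone. It was 0.711 ± 0.177 for Gata3 (adjusted p = 0.0472) and 0.529 ± 0.126 for Mzb1 (adjusted p = 0.0423). The call for Bcl6 was lost only without E2+acolbifene array 2 among 13 alternatives; the others were lost in 4 to 10 of them. All of these differences use the same 2 vehicle arrays.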

How the results depend on the processing

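Limma counts of called lymphocyte genes moved with most settings, and no called value changed sign. The medians for E2+acolbifene against E2 (-0.08) and E2+tamoxifen against E2 (-0.12) changed sign after a further quantile normalization. The share of all features called, in either direction, moved too: with an intensity trend it was 6.04% for E2, 3.19% for acolbifene, 3.85% for E2+acolbifene, 3.33% for the mean of the 3 treated groups and 9.27% for the difference, and without dim probe sets 2.61% for acolbifene, 2.33% for E2+acolbifene, 3.31% for the mean and 11% for the difference. With an intensity trend, 8 were called for E2, 4 for acolbifene, 13 for E2+acolbifene, 9 for the mean of the 3 treated groups, 2 for the difference (the acolbifene effect with E2 minus that without), 1 for fulvestrant, 2 for raloxifene, 1 for E2+raloxifene and 2 for E2+tamoxifen. Without dim probe sets the counts were 1 for acolbifene, 4 for E2+acolbifene, 7 for the mean and 1 for the difference. With the mean of a gene's probe sets they were 2 for acolbifene (2.13% of all genes) and 6 for the mean (2.75%). They were 2 for the difference (6.87% of all genes), a share near the background. The medians were then -0.15 for E2, -0.17 for the mean, 0.02 for the difference, -0.22 for fulvestrant, -0.29 for raloxifene and -0.26 for tamoxifen. A further quantile normalization gave 0 for E2+acolbifene (0.664% of all probe sets) and 0 for E2+acolbifene against E2 (2.33%). It gave 1 for the mean (1.27%) and 1 for the difference (2.49%). It moved the medians to -0.17 for acolbifene, -0.18 for E2+acolbifene and 0.01 for E2+acolbifene against E2. They were 0.19 for the difference, -0.33 for raloxifene and 0.01 for E2+tamoxifen. The raw-file code as a term gave 1 for E2, 0 for E2+acolbifene against E2 and 1 for the mean, with medians of -0.19 for E2 and 0.08 for the difference. Without that term in the fit of 14 arrays, raloxifene had 1 call and the medians were -0.20 for fulvestrant, -0.36 for raloxifene, -0.25 for tamoxifen, -0.17 for E2+fulvestrant and -0.16 for E2+tamoxifen. The raw-file code term in the fit of 8 arrays amounts to leaving out E2 array 1. The replicate block, whose numbers did not pair the arrays, gave 1 for E2+acolbifene (0.617% of all probe sets). It gave 0 for E2+acolbifene against E2 (2.22%) and 1 for the mean (1.06%). Among arrays with the other raw-file code, 19 genes lay below both vehicle arrays (14.1% of all probe sets), a count that leaving arrays out cannot lower. Leaving out each array in turn gave counts of 0 to 2 for E2, 0 to 0 for acolbifene, 0 to 2 for E2+acolbifene, 0 to 0 for E2+acolbifene against E2, 0 to 1 for the mean, 0 to 0 for the difference and 0 to 0 for each single-array comparison. The medians then ran from -0.19 to -0.16 for E2, -0.12 to -0.09 for acolbifene, -0.28 to -0.25 for E2+acolbifene, -0.09 to -0.06 for E2+acolbifene against E2, -0.22 to -0.18 for the mean, 0.03 to 0.10 for the difference, -0.28 to -0.23 for fulvestrant, -0.40 to -0.36 for raloxifene and -0.33 to -0.28 for tamoxifen, with -0.20, -0.04 and -0.12 for E2+fulvestrant, E2+raloxifene and E2+tamoxifen. The causes were not tested. The comparisons by subsets of arrays were chosen after seeing the data. With 2 arrays a group and none for 6 treatments to repeat, array number limits the precision.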
